A study of Mus musculus with 20 samples.

Results

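Grafts of female (XX) mouse islets from pregnant and non-pregnant hosts were compared on 6 of the 20 arrays of the series. Every array titled as a female islet graft was used, and every probe set on it was tested. The islets came from female donors, whose strain the paper's methods do not state. They lay under the kidney capsule of young adult female C57BL/6J hosts that had been made diabetic with streptozotocin, a beta cell toxin. The streptozotocin treatment and the surgery are thus shared by both groups, and hosts to be mated were those whose blood glucose the graft had restored. The P12.5 grafts (n = 3) were taken on day 12.5 of pregnancy and the NP grafts (n = 3) from non-pregnant hosts. The other 14 arrays hold grafts of male (XY) islets in the same kind of host (3 P12.5 and 3 NP) and islets left in place in female mice (4 P12.5 and 4 NP), and are used here for comparison. No animals are named in the labels, which call the arrays biological replicates, so p-values reflect only how these samples scatter.

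During pregnancy the beta cells of the islet, which make insulin, meet placental lactogen and prolactin. Both hormones act through the prolactin receptor, the kinase JAK2 and the transcription factor STAT5, and the islet is known to respond with beta cell division and with serotonin synthesis. A graft under the kidney capsule receives these hormones from the host's blood. The question of the comparison is which transcripts differ when the host, and not the donor, is pregnant.

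All values are log2 expression levels, so a difference of 1 is a 2-fold difference. Changes are P12.5 minus NP with limma's standard error, and limma's p-values were adjusted over all 35511 probe sets. To be called, a probe set had to differ at least 1.5-fold and have an adjusted p below 0.05. By this rule 602 probe sets were called (1.7% of those tested), 297 up and 305 down. With array medians subtracted the balance moved from 49.3% to 37.4% up. Among 19938 genes, 143 were called up (0.717%) and 90 down (0.451%). At least 2-fold were the changes of 41 genes that rose and 17 that fell. In each of the 233 called genes the 3 P12.5 arrays lay on one side of the 3 NP arrays. The call rests on these same values, so the separation is no further evidence for it. Of all genes, 11.4% separated upward and 8.72% downward. Leaving out P12.5 array 1, 2 or 3 left 122, 48 or 133 called probe sets, and leaving out NP array 1, 2 or 3 left 175, 260 or 165. In all, 38 probe sets, among them 16 genes, were called whichever of the 6 arrays was left out.

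**Figure D1:**
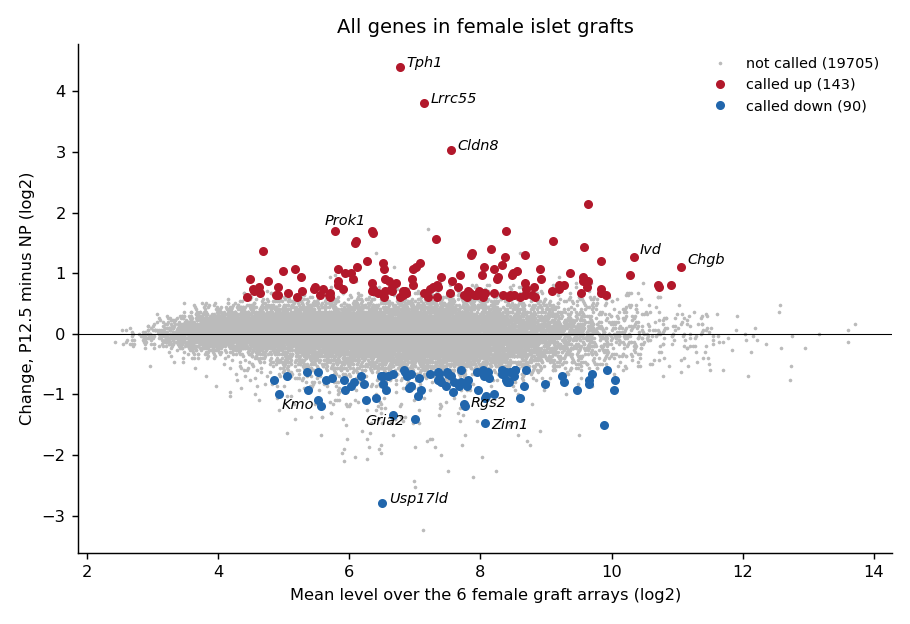
Change in female grafts (P12.5 minus NP, log2) against the mean level over the 6 arrays (log2), 1 point per gene; called genes are red (143 up) or blue (90 down) and the others grey. Tph1, Lrrc55 and Cldn8 stand above every other gene at 4.40, 3.80 and 3.03, and the grey points under -1.5 have large changes but did not pass the test.

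The labelled tissue and donor sex were read first. The pancreatic hormone genes were high and even: Ins2, which encodes insulin, lay between 10.9 and 11 on the 6 arrays, Gcg, which encodes glucagon, between 13.4 and 13.7, and Sst, which encodes somatostatin, between 13.0 and 13.4. The mean of 3 Y-linked genes was 3.63 to 3.87 on the female graft arrays against 6.87 to 7.83 on the male graft arrays. Acinar markers, which come from the digestive part of the pancreas, averaged 5.06 to 5.25 in the female grafts against 7.32 to 9.21 in islets from the pancreas. Prlr, Ins1 and Ddx3y had no probe set of their own in the annotation used and were not analysed here.

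Kidney transcripts differed between the groups. The mean of 28 markers of the proximal tubule, the kidney segment that reabsorbs most of the filtrate, was 7.19, 5.96 and 6.96 in P12.5 arrays 1 to 3 and 8.33, 7.85 and 7.82 in NP arrays 1 to 3. The groups did not overlap, P12.5 array 2 was the lowest, and the means differed by -1.30 (6.70 ± 0.65 (SD) against 8.0 ± 0.29). Islets from the pancreas read 5.41 to 5.54 for the same list. The defining marker Slc34a1, the phosphate transporter of the proximal tubule, was 9.5, 7.0 and 9.5 in P12.5 grafts and 10.3, 10.2 and 10.5 in NP grafts. Umod, the uromodulin gene of the loop of Henle, was 7.7, 5.8 and 7.8 against 10.2, 8.4 and 9.5. Of the 28 proximal markers 25 had a negative change and 21 separated downward, against 8.72% of all genes. Their median was -1.38 (all genes 0.03), but 1 was called down (0.451% of all genes were): Agxt2, an aminotransferase gene (-1.10 ± 0.21, adjusted p = 0.0335). The 10 markers of the loop of Henle and distal tubule had a median of -0.78 with 0 called. Collecting duct markers (12 genes, 0 called) and podocyte markers (4 genes, 0 called) had medians of -0.03 and 0.32, the latter 0.07 without P12.5 array 3 and 0.15 without NP array 3. Male grafts spanned 6.27 to 8.11 at P12.5 and 6.21 to 8.16 in NP hosts for the proximal list, and there the groups overlapped.

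**Figure D2:**
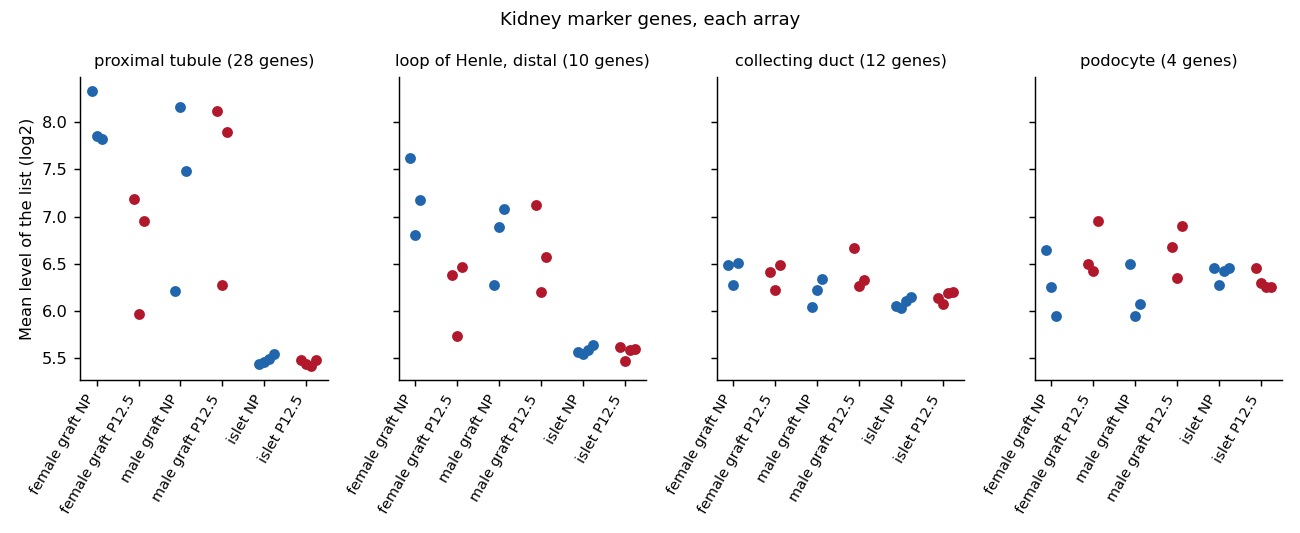
Mean log2 level of 4 kidney marker lists on each of the 20 arrays, 1 point per array, NP in blue and P12.5 in red. In female grafts the proximal tubule list lies between 5.96 and 7.19 at P12.5 and between 7.82 and 8.33 in NP hosts, and islets from the pancreas stay between 5.41 and 5.54.

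Since the kidney level moved with pregnancy here, a second fit held the proximal tubule mean of each array as a covariate. In that fit 9 probe sets were called, among them 7 genes: Tph1, Lrrc55, Cldn8, Prok1, Tnfrsf11b, Matn2 and Kcnk10. The 602 probe sets called without it all kept their direction. Their median change in size was 0.87 without and 0.75 with the covariate, and the median standard error was 0.157 and 0.19. In RNA from whole grafts, fewer cells of a type and less RNA per cell cannot be told apart.

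The islet pregnancy signature, 12 genes that the study drew from islets of pregnant mice, was higher in the grafts of pregnant hosts. Of the 12, 12 had a positive change and 9 were called up (0.717% of all genes were). The median was 1.52 (1.39 with the kidney covariate). The study chose these genes for their rise in islets of non-transplanted pregnant mice, in earlier work, so their direction was known beforehand. The graft arrays had no part in that choice. The islet arrays used for comparison are labelled as a reanalysis, and whether they were part of it is not stated. Tph1, whose enzyme sets the pace of serotonin synthesis, was 9.0, 8.4 and 9.5 in P12.5 grafts and 4.7, 4.4 and 4.6 in NP grafts, a 21.1-fold difference. Its level thus went from the lower quartile of the arrays (4.7 to 4.8) to well above the middle (5.9 to 6.0). Low levels are compressed on these arrays, so the fold is not an exact size. Cldn8, a tight junction protein of epithelia, was 9.5, 9.1 and 8.6 against 6.1, 5.8 and 6.2. Car8, a carbonic anhydrase relative that binds the inositol trisphosphate receptor, was 9.1, 9.3 and 9.3 against 7.1, 7.7 and 7.8. The P12.5 arrays of each of these genes lay clear of the NP arrays.

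Other called members of the signature encode secreted proteins, enzymes and a muscle protein. Tnfrsf11b, which encodes osteoprotegerin, the soluble decoy receptor of RANK ligand, was 8.2, 7.9 and 8.2 in P12.5 grafts and 6.5, 6.6 and 6.5 in NP grafts (1.57 ± 0.14, adjusted p = 0.0017). Matn2, which encodes the matrix protein matrilin 2, was 9.9, 9.9 and 9.8 against 8.2, 8.5 and 8.3 (1.53 ± 0.14, adjusted p = 0.00201). Both were called whichever array was left out. Ivd, the mitochondrial enzyme of leucine breakdown, was 11.1, 11 and 10.8 against 9.6, 9.6 and 9.9. Neb, which encodes the muscle protein nebulin, was 7.5, 7.2 and 6.9 against 5.1, 5.3 and 6.1. NP array 3 read highest among the NP arrays for Neb, and again for Tph2 (6.9, 7.2 and 6.4 against 5.0, 5.3 and 5.7), the second tryptophan hydroxylase gene.

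The remaining genes of the signature had smaller or more scattered changes. Gbp8, an interferon-inducible guanylate-binding protein gene, was called at 7.9, 7.8 and 7.9 against 7.0, 7.0 and 6.8. Cish, a STAT5 target that feeds back on cytokine receptors, was 9.5, 9.4 and 8.9 in P12.5 grafts and 7.0, 8.4 and 8.4 in NP grafts (1.33 ± 0.32, adjusted p = 0.0561), so its groups separated but NP array 1 stood apart from the other two. Lonrf3, a ring finger protein gene, was 7.3, 7.6 and 6.3 against 5.4, 5.5 and 6.3 (adjusted p = 0.0637). Ehhadh, a peroxisomal enzyme of fatty acid oxidation, was 8.7, 8.7 and 7.5 against 7.6, 7.5 and 7.5 (adjusted p = 0.195). In Lonrf3 and Ehhadh, P12.5 array 3 lay at the NP level while the other 2 P12.5 arrays lay above it. The signature had 8, 5 and 10 called members when P12.5 array 1, 2 or 3 was left out, and 8, 8 and 9 when NP array 1, 2 or 3 was.

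**Figure D3:**
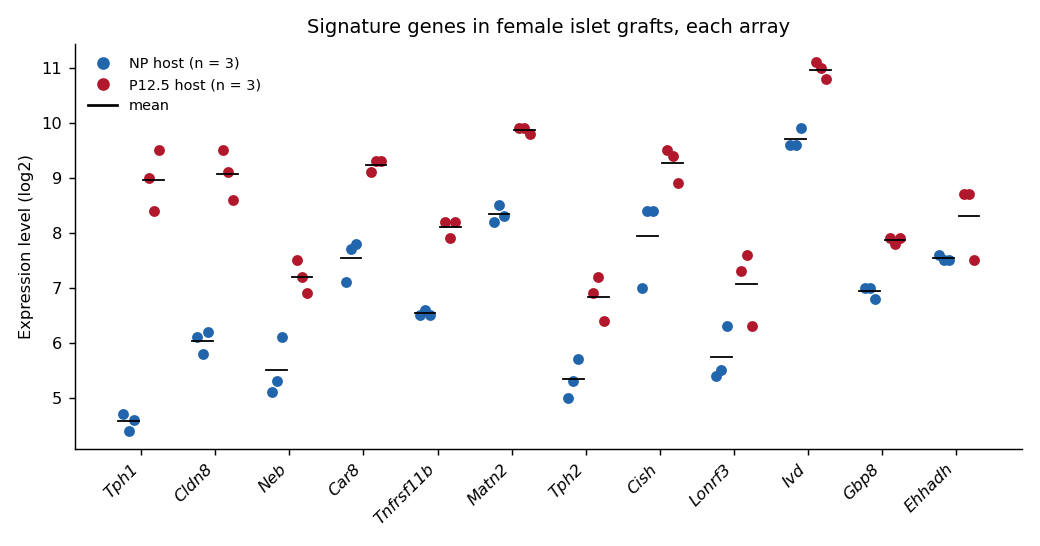
Log2 level of the 12 signature genes on each female graft array, NP hosts in blue (n = 3) and P12.5 hosts in red (n = 3), with a line at the mean. The groups separate in 10 genes; in Lonrf3 and Ehhadh the lowest P12.5 array reaches the NP arrays.

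The sequence that STAT5 binds is known as TTCNNNGAA, which reads the same on both strands in this spelling, so a search of 1 strand covers both. It was looked up in RefSeq promoter windows (GRCm38.p6, 250 bases before to 50 after a gene's start), and no other motif was searched. Windows were found for 6 of the 12 signature genes, and 2 of them held it, Cish and Ivd. The windows of Tph1, Tph2, Ehhadh and Lonrf3 did not hold it, and sequence outside the windows was not searched. The paper reports putative or consensus STAT5 sites in the promoter of every signature gene, and the reach of its search is not stated. Among called genes with a window the sequence stood in 9 of 106 that rose (8.49%) and 5 of 68 that fell (7.35%). Of all 27025 genes with a window, 2582 held it (9.55%). The matches of the signature genes and of Prok1, the largest rise with a match outside the signature, are shown 5′ to 3′ on the gene's strand with the 9 matching bases in capitals. A match is a run of letters and not a measured binding site.
Cish, chr9:107296649-107296677, plus strand: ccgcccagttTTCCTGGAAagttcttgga
Cish, chr9:107296660-107296688, plus strand: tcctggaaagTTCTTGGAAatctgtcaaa
Ivd, chr2:118861896-118861924, plus strand: ttcggctggcTTCCGAGAAcgattggcta
Prok1, chr3:107238747-107238775, minus strand: tgccagccagTTCCTGGAActggataaat
Prok1, chr3:107238721-107238749, minus strand: aattttaattTTCACAGAAaaggcaacct
The 2 Cish matches begin at bases 1 and 12 of the transcript and the printed stretches overlap.

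Outside the signature the largest rise was that of Lrrc55, whose protein is an accessory subunit of BK potassium channels. It was 9.2, 9.2 and 8.7 in P12.5 grafts and 5.4, 5.1 and 5.2 in NP grafts (3.80 ± 0.21, adjusted p = 1.92e-05), a 13.9-fold difference. Among 27 genes of BK channels and transmitter receptors it was the 1 called up (0.717% of all genes were), and the channel's pore gene Kcnma1 stood at -0.13 (adjusted p = 0.54). Prok1, which encodes the secreted peptide prokineticin 1, was 7.4, 7.4 and 6.8 against 5.6, 5.5 and 5.5. Sftpd, which encodes the secreted collectin surfactant protein D, was 7.0, 6.8 and 6.8 against 5.4, 5.3 and 5.3 (1.53 ± 0.18, adjusted p = 0.00497). The NP arrays of both genes were nearly level. Of 35 genes of growth factors, their receptors and binding proteins, and secreted peptides, 3 were called up, against 0.717% of all genes, and 0 down. The 3 were Prok1, Tnfrsf11b and the vascular growth factor gene Vegfb (0.63 ± 0.11).

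Further large rises were of several kinds. Ogdhl, a mitochondrial oxoglutarate dehydrogenase relative, was 10.5, 10.3 and 10.1 against 8.8, 8.9 and 8.9, and Wipi1, which takes part in autophagosome formation, was 8.7, 8.7 and 9.2 against 7.1, 7.4 and 7.9. Dhcr7, the last enzyme of cholesterol synthesis, was 8.7, 8.7 and 8.2 against 7.0, 7.0 and 7.6. Dhcr7 was the 1 called of 19 genes of cholesterol synthesis and uptake, against 0.717% of all genes called up. The median of these 19 was -0.17 (-0.08 without NP array 3). Fbxw24, an F-box protein gene, was low throughout (5.6, 5.7 and 4.8 against 3.9, 3.9 and 4.2). The 5S ribosomal RNA entry n-R5s136 was 10.5, 11.5 and 10.1 against 9.4, 7.9 and 8.4. This last gene belongs to a family of near-identical copies and varied widely within each group, and its value is uncertain.

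Genes of DNA replication and mitosis were higher in the grafts of pregnant hosts. Of 52 measured members 52 had a positive change, against 52.5% of all genes, with a median of 0.45. Of them, 42 separated upward (11.4% of all genes did) and 11 were called up (0.717% of all genes were). The list mean was 6.27, 6.31 and 6.16 in P12.5 grafts and 5.66, 5.79 and 5.75 in NP grafts. Pbk, a mitotic kinase gene, was 6.8, 6.8 and 6.3 against 4.9, 4.8 and 5.1 (1.70 ± 0.24, adjusted p = 0.011). Top2a, the DNA topoisomerase of dividing cells, was 7.2, 7.0 and 7.0 against 5.8, 6.2 and 6.0 (1.07 ± 0.20, adjusted p = 0.0268), while a second, dim probe set of the gene had a change of -0.13. The spindle checkpoint kinase gene Bub1 and the cytokinesis gene Ect2 rose by 0.87 each, the histone chaperone gene Asf1b by 0.80 and the kinase gene Melk by 0.73. Mki67, the common marker of dividing cells, was 6.5, 6.4 and 6.5 against 5.5, 5.9 and 6.0 but did not pass (adjusted p = 0.0716). The other 5 called were Ccna2, Ccnb2, Ccne1, E2f1 and Prc1. The calls rested on all 6 arrays: 1, 0 and 3 members were called when P12.5 array 1, 2 or 3 was omitted, and 2, 5 and 2 when NP array 1, 2 or 3 was. With the kidney covariate the list's median was 0.38. Which cells divided was not tested with these arrays. By staining for insulin and a marker of dividing cells, the paper reports more dividing beta cells in grafts of pregnant hosts. Donor sex was not considered in that comparison. The myeloid list mean was 6.75 to 7.87 at P12.5 and 6.98 to 7.38 in NP hosts, the endothelial 6.38 to 7.35 and 6.33 to 7.21, and the stromal 8.01 to 9.09 and 7.93 to 8.89, with 0 called members in each.

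Cell-cycle regulators outside that list had a median of 0.07, and 1 of 16 was called up (0.717% of all genes were): Myc, the growth-promoting transcription factor gene, at 7.8, 7.9 and 7.0 against 6.3, 6.3 and 6.8. P12.5 array 3 and NP array 3 stood close together for Myc. The D cyclin genes Ccnd1 (0.30, adjusted p = 0.27) and Ccnd2 (-0.13, adjusted p = 0.737) did not pass. Myc was also the 1 called of 21 immediate early genes, against 0.717% of all genes called up. The median of these 21 was 0.27 (0.17 without P12.5 array 1 and 0.43 without P12.5 array 2).

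Most genes of beta cell identity, insulin secretion and the secretory granule were not called, and 2 of 29 were called up (0.717% of all genes were). Chgb, which encodes the secretory granule protein chromogranin B, was 11.6 on each P12.5 array and 10.3, 10.5 and 10.7 on the NP arrays (1.10 ± 0.12, adjusted p = 0.00414), and it was called whichever array was left out. Its relative Chga, which encodes chromogranin A, stood at -0.23 (adjusted p = 0.21). Mafa, a transcription factor of mature beta cells, was 8.9, 9.1 and 9.0 against 7.9, 8.0 and 8.1 (1.00 ± 0.21, adjusted p = 0.0385). The groups of Mafa are tight, but the fit shares its spread with the male grafts and leaving out any 1 of the 6 arrays ended the call. Pdx1 (-0.07), Nkx6-1 (0.47), the zinc transporter gene Slc30a8 (-0.70, adjusted p = 0.0952) and the glucose transporter gene Slc2a2 (-0.60, adjusted p = 0.126) did not pass, and the list's median was -0.03. Ins2 (0.00), Gcg (-0.13) and Sst (0.00) did not pass either. Ins2 read below Gcg and Sst on all 6 arrays, and how well its probe set follows insulin RNA was not tested. The 10 measured genes of other endocrine cells had 0 called and a median of -0.17, and their mean was 9.08 to 9.38 at P12.5 against 9.44 to 9.57 in NP hosts.

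Serotonin and prolactin pathway genes moved at few points. Of 19 serotonin genes Tph1 and Tph2 were called up, against 0.717% of all genes. Both are signature genes and were counted there already. The decarboxylase gene Ddc, which completes the synthesis, was 10.4, 10.6 and 10.1 against 9.9, 10.3 and 10.5, and the vesicle transporter gene Slc18a1 had a change of -0.03. None of 14 genes of the prolactin and growth hormone receptors, JAK-STAT and its feedback was called. The largest of them after Cish was Socs2, a feedback inhibitor, with 9.4, 9.2 and 8.6 against 8.3, 8.2 and 8.8 (0.63, adjusted p = 0.141), where P12.5 array 3 fell inside the NP range. Stat5a and Stat5b stood at 0.03 and -0.03.

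Genes of protein folding and stress in the endoplasmic reticulum had a median of 0.12. Of 28, 3 were called up, against 0.717% of all genes, and 0 down. They serve the handling of misfolded proteins: Edem1 was 10.1, 10.1 and 10 against 9.1, 9.1 and 9.4, Derl3 was 7.9, 8.2 and 7.9 against 6.9, 7.1 and 7.4, and the co-chaperone gene Dnajb11 was 9.1, 9.0 and 9.2 against 8.2, 8.5 and 8.7. The main chaperone gene Hspa5 had a change of -0.03 (adjusted p = 0.91). With an array other than NP array 3 left out, 0 members were called.

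**Figure D4:**
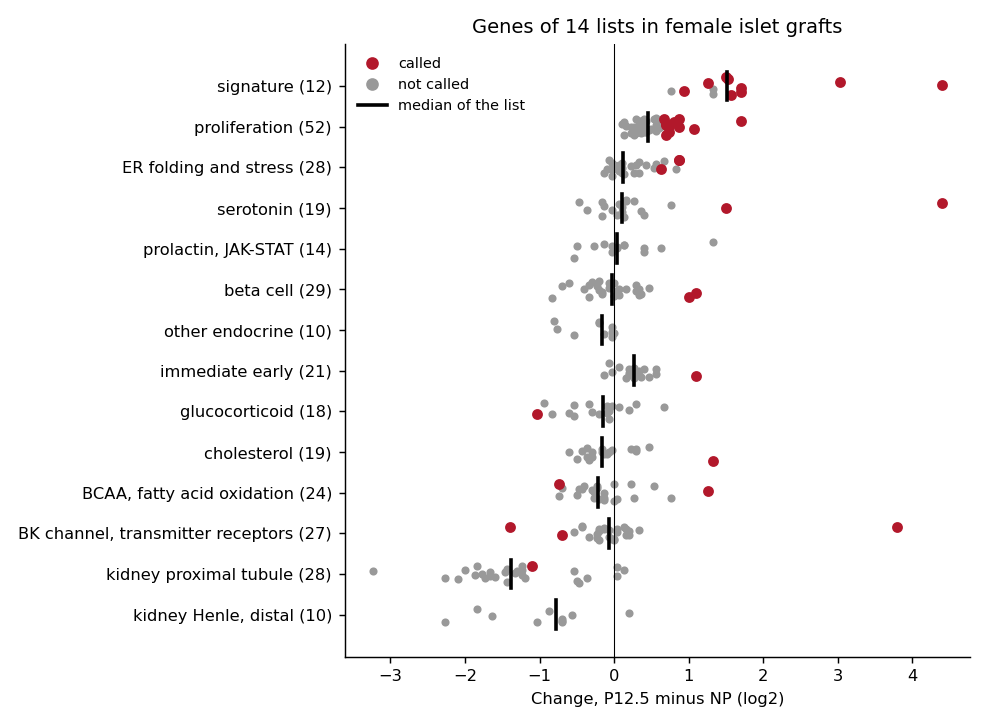
Log2 change in female grafts (P12.5 minus NP) of the measured genes of 14 lists, 1 point per gene, called genes in red, the others in grey and a bar at each median; vertical scatter within a list is for legibility. Proliferation genes all lie right of 0 (median 0.45), and the proximal tubule genes lie furthest left (median -1.38) with 1 called.

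The median change of the called genes was -0.77 among those that fell and 0.80 among those that rose. The largest fall was that of Usp17ld, a deubiquitinase gene of a near-identical family, at 5.5, 4.8 and 5.0 in P12.5 grafts and 8.9, 8.6 and 6.2 in NP grafts, and its value is uncertain. Zim1, an imprinted zinc finger gene, was 7.5, 7.7 and 6.8 against 8.7, 8.8 and 8.9 (-1.47 ± 0.20, adjusted p = 0.011). Zim1 was the 1 named gene that fell and stayed called whichever array was left out. Of the 4 subunit genes of AMPA-type glutamate receptors 2 fell, Gria2 (6.5, 6.6 and 5.8 against 7.6, 7.9 and 7.6) and Gria3 (7.6, 7.8 and 7.7 against 8.3, 8.4 and 8.5), while Gria1 (0.00) and Gria4 (-0.23, adjusted p = 0.66) were not called. Hapln1, a link protein of the hyaluronan matrix, was 6.2, 6.1 and 5.7 against 7.1, 7.5 and 7.4.

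Other falls are given by gene. Rgs2, a regulator of G-protein signalling, was 7.0, 7.6 and 6.9 against 7.8, 8.8 and 8.4. Ddit4, an inhibitor of the growth kinase mTORC1 that glucocorticoids and low oxygen induce, was 6.5, 6.5 and 6.6 against 7.3, 7.9 and 7.5 (-1.03 ± 0.15, adjusted p = 0.011). It was the 1 called of 18 genes of a glucocorticoid list, against 0.451% of all genes called down. That list holds induced genes, the receptor gene and Hsd11b1. Its median was -0.15 with 14 negative (-0.27 without NP array 3), and Fkbp5 of the same list was 8.1, 8.2 and 7.9 against 8.4, 9.0 and 8.6 (adjusted p = 0.0924). Kmo, which degrades the tryptophan metabolite kynurenine, was 4.8, 4.8 and 5.3 against 6.4, 6.0 and 6.1. Kmo is also expressed in kidney. With the kidney covariate its change was -0.81 in place of -1.20, and that of Zim1 -1.49 in place of -1.47. Neither Kmo nor Zim1 was called in that fit. The change of Agxt2 was -0.79 in place of -1.10, but Agxt2 is itself among the markers averaged in the covariate. The part of kidney RNA in these falls was not tested. Acad8, a dehydrogenase of valine breakdown, fell by 0.73 (adjusted p = 0.0481), opposite to Ivd. These were the 2 called of 24 genes that oxidise branched-chain amino acids or fatty acids (median -0.22, and -0.10 without P12.5 array 3). Of all genes, 0.717% were called up and 0.451% down. Akr1c12, an aldo-keto reductase gene, fell by 1.20, the small RNA genes Scarna17 and Snora75 by 1.5 and 1.1, and Wsb1, Adgb, A330023F24Rik and Mdm1 by 1.03 to 1.07.

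Male grafts in pregnant hosts served as the closest comparison, and no difference from them passed. The interaction of donor sex with pregnancy called 0 probe sets in limma (0% of those tested; 1772 had an unadjusted p under 0.05, and the smallest adjusted p was 0.471). Mafa had the changes 1.00 ± 0.21 in female and 0.13 ± 0.21 in male grafts, and Gbp8 0.93 ± 0.13 and 0.20 ± 0.13; their interactions had unadjusted p = 0.0121 and 0.00238 in limma, and adjusted p = 0.955 for each. Of the 143 genes called up in female grafts 43 were called up in male grafts too, where 0.306% of all genes were (30.1% of the female and 70.5% of the male list). A positive change in male grafts was found for 141 of the 143, and for 9586 of all 19938 genes. Of the 90 called down, 20 were called down in male grafts, where 0.451% of all genes were (22.2% of each list), and 89 had a negative change. Probe sets called numbered 331 in male grafts (0.932%) and 257 in islets (0.724%). The graft comparisons share no arrays but share 1 estimate of the spread. Among proliferation genes 1 of 52 was called in male grafts, with a median of 0.23.

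The response was also set beside that of islets in the pancreas. Of the 143 genes called up, 60 were called up in islets, where 0.908% of all genes were (42.0% of the female graft and 33.1% of the islet list). A positive change in islets was found for 133 of the 143, and for 9157 of all 19938 genes. Of the 90 called down, 5 were called down in islets, where 0.0903% of all genes were (5.56%, and 27.8% of the 18 islet genes): Abca1, Mdm1, Pcdh15, Rgs2 and Zim1. The median change of the 90 genes was -0.15 in islets and -0.50 in male grafts, and that of the 143 was 0.45 and 0.53. The interaction of grafting with pregnancy called 18 probe sets (0.0507%), of which 15 carry no symbol, while 5005 had an unadjusted p under 0.05. The 2 genes among them were Ppp1r14b, which encodes a phosphatase inhibitor, with 1.07 in female grafts against 0.15 in islets, and Bloc1s3, a gene of lysosome-related organelle biogenesis, with -0.97 against 0.08. Transplantation, streptozotocin, kidney RNA and any array batch cannot be told apart in that contrast.

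**Figure D5:**
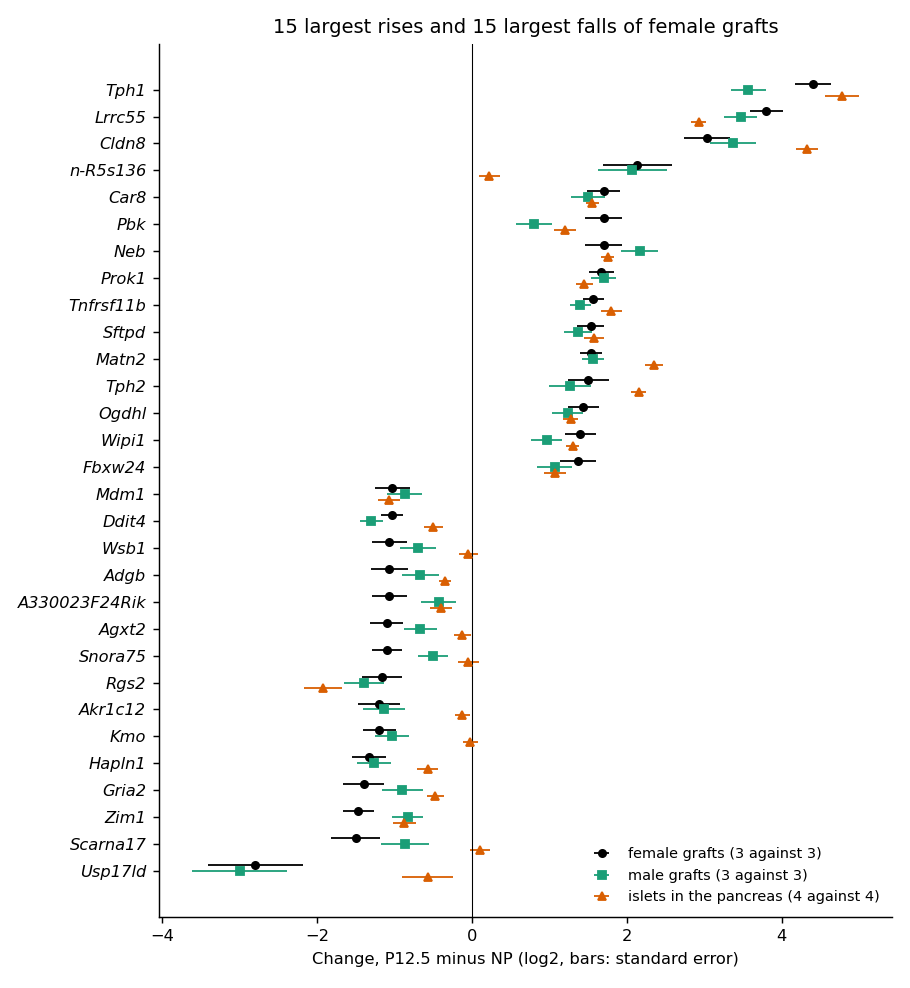
Log2 change (P12.5 minus NP) with its standard error for the 15 largest rises and 15 largest falls among called genes of female grafts, in female grafts (black, 3 against 3), male grafts (green, 3 against 3) and islets in the pancreas (orange, 4 against 4). The genes were chosen on the black values; among the falls, islets lie near 0 for genes such as Kmo (-0.03) and Wsb1 (-0.05) and beyond the grafts for Rgs2 (-1.93).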

How the data were processed

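RNA of female islet grafts was hybridised by the authors to Affymetrix MoGene 1.0 ST arrays. Each deposited value is a log2 expression level of 1 probe set. The authors made it by robust multichip analysis (background adjustment, quantile normalization between arrays, summary per probe set) in aroma.affymetrix, and it is rounded to 1 decimal. The genome build behind the array annotation is not given in the sources used here. Precision is limited by the number of arrays, with a median standard error of 0.151 for a change.

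Each gene was represented by the brightest probe set (mean of the 20 arrays) that carries its symbol alone. Of 35511 probe sets, 12101 had no symbol and 1621 several; these were tested but not named. Of 19938 genes, 19856 matched RefSeq by Entrez identifier. Tests used limma 3.58.1 in R 4.3.3 (lmFit, eBayes) on the 12 graft arrays with the 4 groups as the only terms, two-sided, with Benjamini-Hochberg adjustment over all probe sets. Changes in islets came from a fit of their 8 arrays, and the interaction with islets from all 20 arrays. The study tested a preselected set of probe sets between P12.5 and NP grafts; here every probe set was tested. The script was tested on simulated data.

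Named were the signature genes, the 15 largest rises and 15 largest falls among called genes whose groups do not overlap, called members of the 35 gene lists (at most 6 per list), hormone and sex genes, and the 3 brightest members of each kidney list; any other gene was chosen after its values were seen. The members and lists were chosen with earlier results of these data known, and 613 of 677 distinct list genes were measured. Lists are described by counts and medians, with no list test. Alternatives were the arrays in the fit, scaling, a filter on dim probe sets, the variance model, a kidney covariate, a replicate block, a fold minimum of 2, the probe set of a gene and leaving out each array.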

Additional observations from a re-analysis of the deposited data

Results flagged for a closer look

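The pregnancy response of female grafts differed from that of islets in the pancreas, by limma's interaction term over all 20 arrays, for 18 probe sets, of which 15 carry no gene symbol. The 2 genes among them were Ppp1r14b, whose log2 change was 0.92 higher in female grafts than in islets (adjusted p = 0.0375), and Bloc1s3, whose change was lower by the difference of -1.04 (adjusted p = 0.0288). Ppp1r14b was 8.7, 8.9 and 8.6 in P12.5 grafts and 7.6, 7.9 and 7.5 in NP grafts, so the groups did not overlap. Bloc1s3 was 7.0, 7.3 and 7.0 in P12.5 grafts and 7.9, 8.2 and 8.1 in NP grafts. In male grafts their changes were 0.57 and -1.0.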

How the results depend on the processing

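The number of called probe sets (602, with 297 up and 305 down) was 305 (162 up, 143 down) in a fit of the 6 female graft arrays alone, 1720 (860 in each direction) with all 20 arrays, 9 (7 up, 2 down) with the kidney list as a covariate and 214 (76 up, 138 down) at a fold minimum of 2. Leaving out 1 array gave 48 to 260 calls in all, 27 to 141 up and 21 to 119 down, each lowest without P12.5 array 2 and highest without NP array 2. Over the gene lists 35 member calls became 22 with 6 arrays, 72 with 20 arrays, 6 with the kidney covariate, 19 at a fold minimum of 2 and 8 to 19 with 1 array left out. The interaction of female grafts with islets called 10 probe sets with array medians subtracted, 32 after renewed quantile normalization, 32 without dim probe sets, 30 with trend and robust, 0 with the kidney covariate and 1 to 15 with 1 array left out. The interaction of donor sex with pregnancy called 0 in every other setting run and 1 with the replicate block. Marker lists outside the kidney whose arrays did not overlap numbered 2 (other endocrine cells and acinar), 1 (acinar) with array medians subtracted, 3 by the median of the list (other endocrine cells, ductal and Schwann cell) and 2 to 3 with 1 array left out, each time with both of the first. The kidney list difference was -0.93 to -1.54 with 1 array left out. The causes of these shifts were not tested.

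The labels do not say whether replicate numbers pair the arrays. The correlations of deviations of same-numbered P12.5 and NP arrays were -0.004, 0.074 and -0.242. Those of differently numbered arrays ran from -0.201 to 0.180. Whether the arrays were paired cannot be settled from so few values. With the replicate block 266 probe sets were called (139 up, 127 down). Among the named genes, of which 47 were called, no called change turned its direction under any alternative run. For the 602 called probe sets as a whole, direction was checked with the kidney covariate, where none turned.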

Other observations

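Lists of genes defined by symbol after the values were seen are described here without a test. Of 59 genes of cytosolic ribosomal proteins, which build the ribosome, 55 had a positive change in female grafts and 4 were called up (Rps28, Rpl28, Rpl37a and Rps13), against 0.717% of all genes, with a median of 0.43 (0.03 in male grafts and 0.13 in islets). NP array 3 stood apart with a list mean of 8.76 against 9.26 and 9.31 in the other NP arrays and 9.45 to 9.56 at P12.5. Without it the mean change was 0.23 in place of 0.40 and the median 0.28. The 4 calls became 2, 0 and 1 with P12.5 array 1, 2 or 3 left out and 2, 3 and 2 with NP array 1, 2 or 3 left out. Rps28 was 9.7, 9.9 and 10 in P12.5 grafts and 8.8, 9.1 and 8.7 in NP grafts. Ribosomal protein genes have many near-identical pseudogenes, and their levels are uncertain. Of 100 genes of splicing factors and RNA binding proteins 11 were called down and 0 up, against 0.451% of all genes called down, with a median of -0.13. Those 11 calls became 2, 0 and 0 with P12.5 array 1, 2 or 3 left out and 1, 4 and 2 with NP array 1, 2 or 3 left out. Luc7l3, a splicing factor gene, was 9.1, 9.0 and 8.9 against 10, 9.9 and 9.9, and Srsf5, another, was 9.7, 9.7 and 9.6 against 10.6, 10.5 and 10.2. In male grafts 1 of the 100 was called down, with a median of -0.17. Of 350 zinc finger genes named Zfp, 6 were called down, against 0.451% of all genes, and 0 up (median -0.13). The mean change of these genes was -0.16, and -0.09 without NP array 3; the count of calls was 3 without NP array 2 and 0 with any other array left out. Histone genes, many of them near-identical, had 6 of 31 called up, against 0.717% of all genes. Of the 31, 10 had a negative change, and the median was 0.10 (0.05 without P12.5 array 1). The count of 6 became 1 with NP array 1 left out, 5 with NP array 2 left out and 0 with any other array left out.

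Genes called down were longer than genes called up: the median span on the genome was 27.3 kb against 11.9 kb, and 17.7 kb over all genes with a span. Across 19856 genes, which are not independent replicates, Spearman's rho between span and change was -0.18 for the change in female grafts, -0.086 for male grafts and -0.094 for islets. Kidney transcripts were lower on the same P12.5 arrays (proximal tubule list 5.96 to 7.19 against 7.82 to 8.33), and their part in these patterns was not tested.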
